A study of Mus musculus with 9 samples.

Results

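The 50 genes described here encode proteins of the mitotic spindle, the kinetochore, the spindle checkpoint and cytokinesis. They were taken by name from a fixed list and matched to the count table through GENCODE M21 symbols. The list was drawn up with earlier results of these data known, so it was not chosen blind to them. All 50 were found among the 49315 gene identifiers of the table, and all 50 passed the filter on low counts that left 18211 genes for testing.

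At mitosis, kinetochores are built on the centromeres and join each chromosome to spindle microtubules. The spindle checkpoint holds back chromosome separation until all kinetochores are attached, motor proteins and mitotic kinases shape the spindle, and the central spindle and the contractile ring then divide the cell. Most of these genes are transcribed late in the cell cycle, when complexes that bind the cell cycle homology region and the CCAAT box of their promoters switch between repression and activation. Pancreatic stellate cells are fibroblast-like cells that rest in the healthy pancreas and divide and lay down matrix when activated.

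RNA was measured by sequencing poly-A RNA from 3 groups of 3 libraries of C57BL6 mouse pancreatic stellate cells. HIF1a-ko hypoxia cells carried the guide HIF1a-sg2 against Hif1a, which encodes the HIF-1 subunit that is stabilised when oxygen is low, and were kept at 0.5% oxygen for 48 h. R26 hypoxia cells carried the control guide R26-sg1 and had the same 48 h at 0.5% oxygen, and R26 normoxia cells carried R26-sg1 and spent 48 h at 20% oxygen. Cells of all groups had grown out spontaneously as immortal cultures, carried lentiviral Cas9, and were used as uncloned populations after puromycin selection. Each genotype is 1 guide in 1 population, so the loss of Hif1a and any other difference between the 2 populations cannot be told apart. No normoxic HIF1a-ko library was analysed here. Whether the 3 libraries of a group are separate cultures is not stated, and the p-values reflect the spread among these libraries, part or all of which may be technical.

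Between 43837809 and 107840223 counts were held by each library, with 1 library of every group (HIF1a-ko hypoxia 1, R26 hypoxia 3 and R26 normoxia 3) sequenced more deeply than the other 6, called shallower here. Hif1a itself stood at 121.7 ± 4.27 CPM in HIF1a-ko hypoxia, 184.5 ± 20.1 CPM in R26 hypoxia and 203.7 ± 18.3 CPM in R26 normoxia (SD, n = 3 each), where CPM is the read count scaled to a common library size with TMM factors. On the log2 scale Hif1a in HIF1a-ko hypoxia differed by -0.60 ± 0.09 (SE) from R26 hypoxia (adjusted p = 0.000358, edgeR). From R26 normoxia it differed by -0.74 ± 0.09 (adjusted p = 0.000112, edgeR). Because guide-directed cuts can leave the transcript level as it was, the Hif1a level checks the genotype only weakly. Of the fibroblast genes, Vim stood at 3281 CPM or more in every library, while Des of the same list stood at only 0.246 to 3.73 CPM. The retinoid-storage marker Lrat was at or near 0. Summed over 10 fibroblast markers, the level was 13478 to 13943 CPM in HIF1a-ko hypoxia, 19777 to 21322 CPM in R26 hypoxia and 17542 to 19253 CPM in R26 normoxia. Of the markers of other cells, the epithelial keratin Krt8 and the immunoglobulin gene Igha were at or near 0 in the 3 deeper libraries and between 11.5 and 46.9 CPM in the shallower ones, while the keratin Krt19 stood at 10.9 to 63.7 CPM and the myeloid gene Lyz2 at 4.76 to 30.7 CPM over all 9. The acinar and islet genes Amy2a2, Ins1 and Ins2 were at 0 in all 9, and Cela1 of the same list stood at 4.22 to 12.7 CPM in all 9 and Gcg was detected in 6.

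In hypoxia, HIF1a-ko cells held far more RNA of the mitotic genes than R26 cells. The summed level of the 50 genes was 4110, 4019 and 4263 CPM in HIF1a-ko hypoxia, 1201, 1078 and 1327 CPM in R26 hypoxia, and 1097, 1013 and 1124 CPM in R26 normoxia. The 3 HIF1a-ko libraries lay far above all 6 R26 libraries, while the R26 libraries at the 2 oxygen levels overlapped. Among R26 libraries of the same replicate number, the sum was higher in hypoxia for all 3 numbers. The labels do not say that these numbers mark pairs. The mean in HIF1a-ko hypoxia was 3.44 times that in R26 hypoxia and 3.83 times that in R26 normoxia, and R26 hypoxia was 1.12 times R26 normoxia. In bulk RNA, more dividing cells and more RNA of these genes per dividing cell cannot be told apart.

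**Figure D1:**
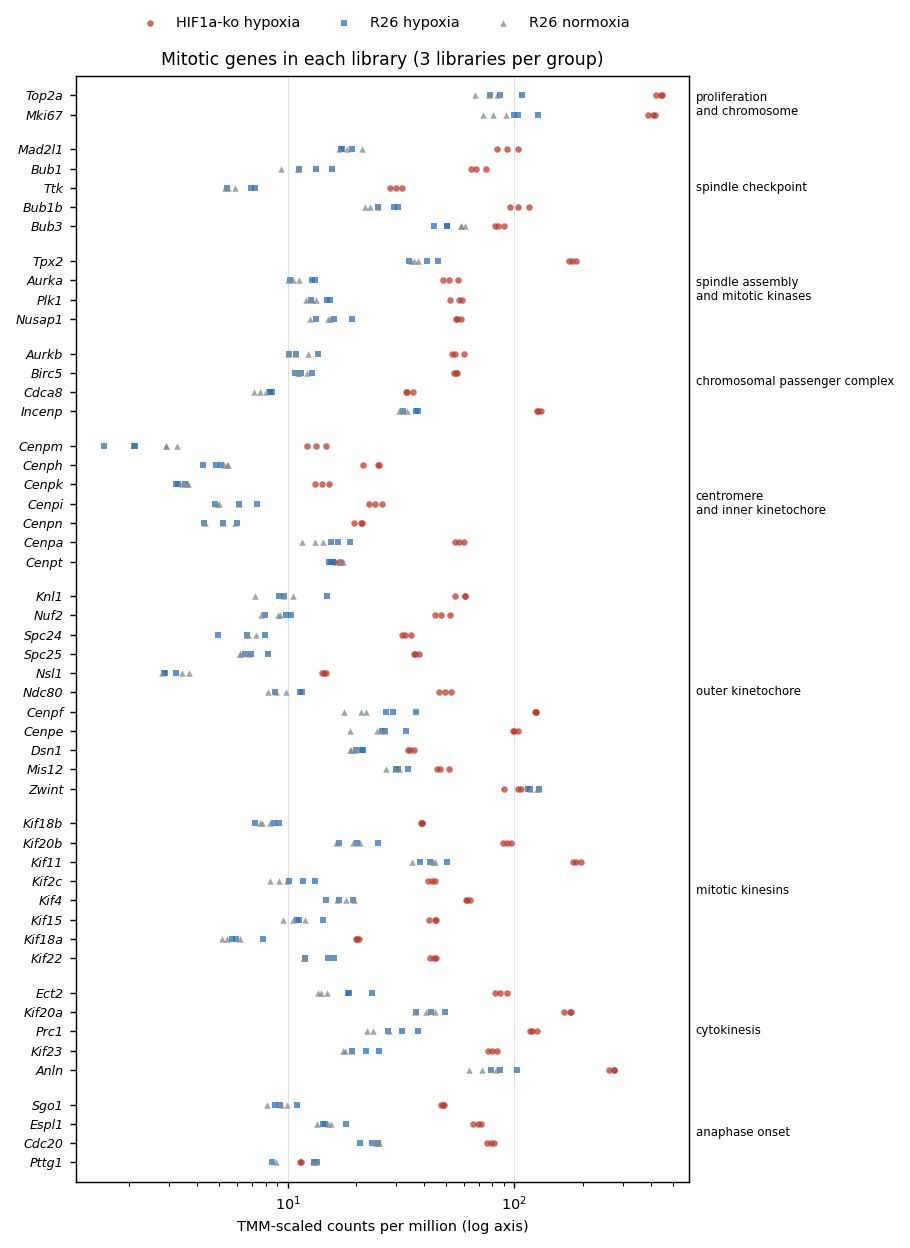
Level of each of the 50 genes in every library, in CPM on a log axis, with the genes grouped by role. Each point is 1 library, and its shape and colour give the group. For most genes the 3 HIF1a-ko hypoxia points stand to the right of the 6 R26 points, and for Cenpt, Pttg1 and Zwint they do not.

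Between HIF1a-ko hypoxia and R26 hypoxia, 47 of the 50 genes rose, 1 fell and 2 were not called by edgeR's quasi-likelihood test at a Benjamini-Hochberg adjusted p under 0.05. Over all 18211 genes tested, 22% were called higher and 23.8% lower. The highest adjusted p among the 47 risers was 0.000107, for Mis12. Of the 50 genes, 44 were called at least 2-fold higher, against 5.63% of all genes, and 25 were at least 4-fold higher, against 1.72% of all genes. The median log2 fold change was 2.00, against -0.02 over all genes, with quartiles of 1.81 and 2.23. In 48 genes every HIF1a-ko library lay above every R26 hypoxia library, which was the case for 26.4% of all genes, and in 1 gene every HIF1a-ko library lay below (28.1% of all genes). In the 6 shallower libraries alone the same test again called 47 genes higher and 1 lower.

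**Figure D2:**
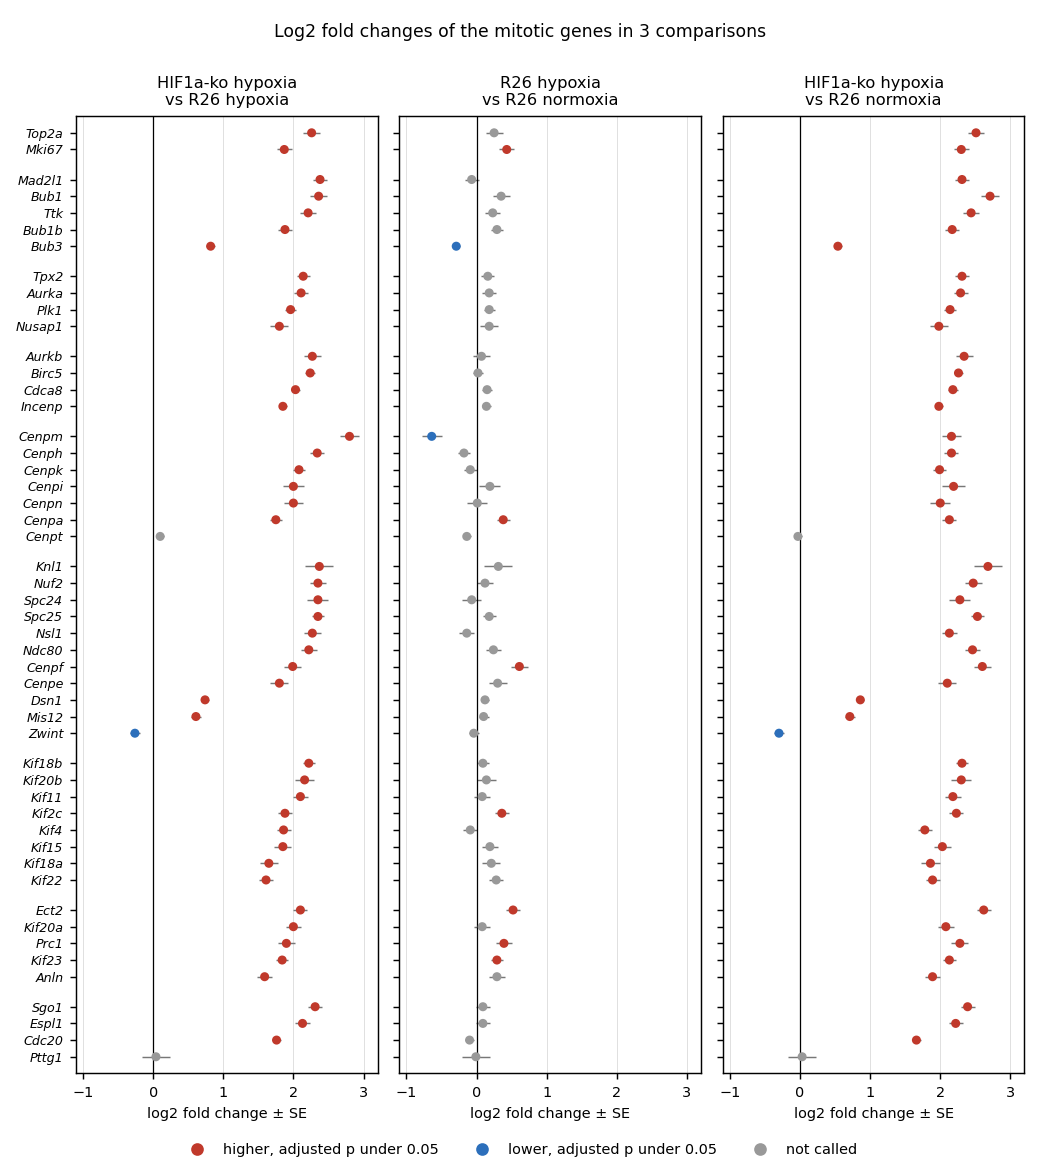
Log2 fold change of each of the 50 genes in 3 comparisons, with bars for the standard error of the fit; red points are called higher, blue points lower and grey points are not called. In HIF1a-ko hypoxia against R26 hypoxia most points lie near 2, with Bub3, Cenpt, Dsn1, Mis12, Pttg1 and Zwint below 1, while in R26 hypoxia against R26 normoxia they run from -0.64 to 0.61.

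The promoters of these genes were read from RefSeq (build GRCm38.p6, 250 bases before to 50 bases after the start of transcription) to see which letters the raised and the least changed genes hold. The table held 49 promoters of 44 of the 50 genes. Letters of the cell cycle homology region (TTTGAA or TTCGAA, either strand) were in 33 of the 49 promoters (67.3%), against 14.2% of 15252 promoters of tested genes and 19.2% of all 32851 promoters. Within 50 bases of the start they were in 59.2% of the mitotic promoters, against 3.72% of promoters of tested genes and 5.31% of all promoters. The CCAAT box (CCAAT, either strand) was in 71.4%, against 37.2% of promoters of tested genes and 37.4% of all promoters. For the core that HIF binds, only the letters ACGTG (either strand) were searched, and the form GCGTG was not. ACGTG was in 26.5% of the mitotic promoters, 24.1% of promoters of tested genes and 19.6% of all promoters. These shares do not count promoters that hold only GCGTG. For the E2F letters (TTCGCGC or TTGGCGC, either strand) the shares were 10.2%, 6.25% and 3.89%. Each motif was searched on its own, so matches that share bases were all kept. A match describes letters in this window, not a bound site.

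The promoters printed for comparison are those of the raised genes Plk1 (chr7:122159185-122159484, plus strand), Cdc20 (chr4:118437294-118437593, minus strand) and Aurka (chr2:172370521-172370820, minus strand), and of Ccnb2 (chr9:70421505-70421804, minus strand), a cyclin outside the 50 genes whose promoter is a known example of this kind. With them stand the promoters of Cenpt (chr8:105851959-105852258, minus strand) and Pttg1 (chr11:43425932-43426231, minus strand), the 2 genes that were not called, and of Zwint (chr10:72654596-72654895, plus strand), which fell and was added after its values were seen. Each is written 5′ to 3′ on the gene's strand, and capitals mark matches to the searched letters on either strand. GCGTG was not searched and stays in lower case, as in Cdc20 and Zwint.
Plk1: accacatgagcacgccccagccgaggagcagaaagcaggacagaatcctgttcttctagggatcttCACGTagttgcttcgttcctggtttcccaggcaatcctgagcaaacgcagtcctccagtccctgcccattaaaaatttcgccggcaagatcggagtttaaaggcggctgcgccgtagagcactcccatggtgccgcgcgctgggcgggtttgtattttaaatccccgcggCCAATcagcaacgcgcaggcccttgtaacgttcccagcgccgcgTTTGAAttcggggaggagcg
Cdc20: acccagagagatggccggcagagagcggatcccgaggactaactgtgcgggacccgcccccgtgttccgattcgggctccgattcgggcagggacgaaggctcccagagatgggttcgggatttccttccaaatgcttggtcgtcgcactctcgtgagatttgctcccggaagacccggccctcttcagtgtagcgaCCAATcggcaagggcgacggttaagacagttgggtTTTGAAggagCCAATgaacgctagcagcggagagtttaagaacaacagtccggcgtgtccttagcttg
Aurka: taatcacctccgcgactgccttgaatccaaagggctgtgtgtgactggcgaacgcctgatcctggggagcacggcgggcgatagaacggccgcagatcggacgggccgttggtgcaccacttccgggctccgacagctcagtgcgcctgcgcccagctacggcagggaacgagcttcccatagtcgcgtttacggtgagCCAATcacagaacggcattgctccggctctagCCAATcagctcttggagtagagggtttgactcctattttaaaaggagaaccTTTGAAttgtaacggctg
Ccnb2: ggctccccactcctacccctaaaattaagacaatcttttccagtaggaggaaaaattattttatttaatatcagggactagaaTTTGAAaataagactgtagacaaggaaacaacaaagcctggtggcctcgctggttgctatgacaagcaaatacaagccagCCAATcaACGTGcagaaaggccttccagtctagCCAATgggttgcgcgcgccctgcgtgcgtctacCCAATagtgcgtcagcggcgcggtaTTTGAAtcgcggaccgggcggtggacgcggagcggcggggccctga
Cenpt: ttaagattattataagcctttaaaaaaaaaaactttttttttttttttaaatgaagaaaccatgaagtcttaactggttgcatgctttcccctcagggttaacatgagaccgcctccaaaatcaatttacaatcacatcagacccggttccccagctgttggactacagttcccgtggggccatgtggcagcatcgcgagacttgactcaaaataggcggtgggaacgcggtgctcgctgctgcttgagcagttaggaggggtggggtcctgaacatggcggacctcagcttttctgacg
Pttg1: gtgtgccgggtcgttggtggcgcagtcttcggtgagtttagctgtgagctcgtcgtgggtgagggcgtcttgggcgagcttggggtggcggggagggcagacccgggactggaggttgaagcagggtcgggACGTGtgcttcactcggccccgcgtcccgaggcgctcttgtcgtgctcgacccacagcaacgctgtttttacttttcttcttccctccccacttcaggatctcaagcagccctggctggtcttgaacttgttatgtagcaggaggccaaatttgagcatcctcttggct
Zwint: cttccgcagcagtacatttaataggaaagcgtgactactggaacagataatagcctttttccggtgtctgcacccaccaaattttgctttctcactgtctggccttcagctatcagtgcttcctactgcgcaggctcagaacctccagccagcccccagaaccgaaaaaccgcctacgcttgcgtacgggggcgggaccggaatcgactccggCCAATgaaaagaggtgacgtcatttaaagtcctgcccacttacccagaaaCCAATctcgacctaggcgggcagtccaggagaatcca
Plk1 holds TTTGAA 31 bases into the transcript with a CCAAT starting 14 bases before the start, and Aurka holds TTTGAA at base 33 with CCAAT 51 and 19 bases before the start. In Cdc20, TTTGAA starts 18 bases before the start of transcription, between CCAAT boxes at 53 and 8 bases before it. Cenpt held none of the searched letters and Pttg1 held only ACGTG, 119 bases before the start. Both windows follow the RefSeq start and lie inside the GENCODE genes, which begin at 105853278 for Cenpt and 43426251 for Pttg1. The bases before those GENCODE starts were not searched, unlike for Plk1, Cdc20, Aurka and Zwint, whose windows span the GENCODE start. Zwint held CCAAT 37 bases before and 14 bases after the start and no letters of the cell cycle homology region. Of the 44 genes with a promoter in the table, 30 held letters of the cell cycle homology region and 14 did not. Those 14 were Cenpt, Pttg1, Zwint, Dsn1 and Mis12, which changed least together with Bub3, and also Birc5, Cenpe, Cenph, Cenpi, Cenpk, Kif18a, Mad2l1, Nuf2 and Nusap1, which rose at least 3.13-fold. Bub3 did hold these letters, so the presence of the letters and the size of the change did not match gene by gene.

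**Figure D3:**
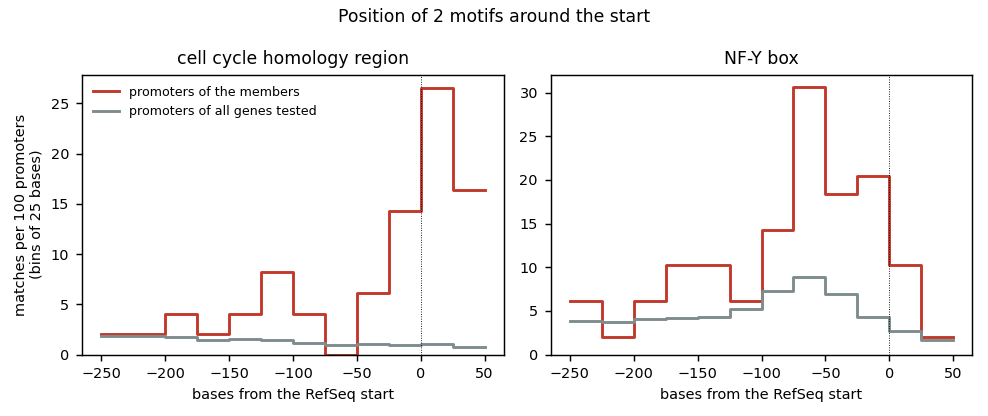
Matches per 100 promoters in bins of 25 bases, by distance in bases from the RefSeq start of transcription, for the cell cycle homology region (left) and the CCAAT box, labelled NF-Y box (right). The red line is the 49 promoters of the mitotic genes and the grey line the promoters of all tested genes. The red line is highest just after the start for the cell cycle homology region and between 75 and 50 bases before it for CCAAT.

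Mki67 (ENSMUSG00000031004, chromosome 7, 135689784 to 135716361, minus strand, GRCm38 as for all positions here), whose protein coats mitotic chromosomes and which is widely used to mark dividing cells, stood at 406.1, 387.6 and 414.9 CPM in HIF1a-ko hypoxia, at 103.2, 99.9 and 127.5 CPM in R26 hypoxia and at 80.6, 72.4 and 92.2 CPM in R26 normoxia. Top2a (ENSMUSG00000020914, chromosome 11, 98992943 to 99024189, minus strand), the topoisomerase that untangles replicated chromosomes, stood at 441.8, 421.1 and 445.0 CPM in HIF1a-ko hypoxia, at 86.0, 78.2 and 107.7 CPM in R26 hypoxia and at 77.6, 67.4 and 83.9 CPM in R26 normoxia. In both genes the HIF1a-ko libraries stood clear of all R26 libraries, and the R26 groups were separate for Mki67 and overlapped for Top2a. Between HIF1a-ko hypoxia and R26 hypoxia, Mki67 rose by 1.87 ± 0.11 (SE) and Top2a by 2.26 ± 0.12 on the log2 scale.

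All 5 spindle checkpoint genes rose in HIF1a-ko hypoxia over R26 hypoxia. Mad2l1, which encodes the checkpoint protein MAD2 that restrains CDC20, stood at 84.1, 92.4 and 103.8 CPM in HIF1a-ko hypoxia, at 19.2, 17.2 and 17.4 CPM in R26 hypoxia and at 21.2, 16.8 and 18.4 CPM in R26 normoxia. It rose by 2.38 ± 0.10 on the log2 scale, 5.21-fold, and its R26 groups overlapped. The checkpoint kinases Bub1 and Ttk rose 5.14-fold and 4.61-fold, and Bub1b, which encodes the CDC20 inhibitor BUBR1, rose 3.68-fold. Bub3 (ENSMUSG00000066979, chromosome 7, 131560222 to 131571895, plus strand), which brings BUB1 and BUBR1 to kinetochores, changed less, with 82.5, 84.2 and 89.9 CPM in HIF1a-ko hypoxia, 50.5, 44.1 and 50.3 CPM in R26 hypoxia and 58.2, 60.3 and 58.3 CPM in R26 normoxia. Its 3 groups were all separate, with R26 hypoxia lowest. Bub3 rose by 0.82 ± 0.06 over R26 hypoxia and, in R26 cells, fell by 0.29 ± 0.06 in hypoxia (adjusted p = 0.00738, edgeR). The log2 ratio of Bub3 to Bub1 within a library was 1.55 lower in HIF1a-ko hypoxia than in R26 hypoxia (a two-sided exact permutation test gave p = 0.1, the smallest that 3 against 3 libraries allow). Such a ratio of a little changed to a strongly raised gene, here and below, restates the single-gene values and is no separate evidence.

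Among spindle assembly genes and mitotic kinases, all 4 rose. Tpx2, which activates Aurora A on spindle microtubules, stood at 179.3, 173.1 and 186.7 CPM in HIF1a-ko hypoxia, at 41.1, 34.4 and 46.2 CPM in R26 hypoxia and at 37.7, 35.1 and 36 CPM in R26 normoxia. Nusap1, which bundles microtubules near chromosomes, stood at 55.7, 55.4 and 58.2 CPM in HIF1a-ko hypoxia, at 16, 13.4 and 19.2 CPM in R26 hypoxia and at 15.1, 12.5 and 15.3 CPM in R26 normoxia. For both, HIF1a-ko libraries were clear of all R26 libraries and the R26 groups overlapped. Tpx2 rose by 2.14 ± 0.09 and Nusap1 by 1.80 ± 0.13 over R26 hypoxia. Aurka, which encodes Aurora A, rose 4.32-fold and Plk1, the polo-like kinase of centrosomes and kinetochores, 3.90-fold. Plk1 shares 10.4% of its transcript sequence with other genes, mostly the pseudogene Plk-ps1, so its counts are less certain.

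The chromosomal passenger complex corrects faulty attachments and later acts at the midzone, and all 4 of its genes rose. Aurkb, its kinase, stood at 60.1, 52.8 and 54.8 CPM in HIF1a-ko hypoxia, at 10.9, 10.2 and 13.6 CPM in R26 hypoxia and at 10.8, 10.1 and 12.3 CPM in R26 normoxia. Incenp, its scaffold, stood at 125.7, 126.7 and 130.7 CPM in HIF1a-ko hypoxia, at 37.6, 32.2 and 36.7 CPM in R26 hypoxia and at 33.6, 31.1 and 32.2 CPM in R26 normoxia. Neither gene overlapped between HIF1a-ko and R26 libraries, and both overlapped between the R26 groups. Aurkb rose by 2.27 ± 0.12 and Incenp by 1.85 ± 0.06 on the log2 scale. Birc5 (survivin) rose 4.72-fold and Cdca8 (borealin), which bind each other and Incenp, 4.08-fold.

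Of 7 genes of the centromere and inner kinetochore, 6 rose and Cenpt was not called. Cenpm (ENSMUSG00000068101, chromosome 15, 82233779 to 82244748, minus strand), a subunit of the inner kinetochore network, stood at 14.8, 12.2 and 13.4 CPM in HIF1a-ko hypoxia, at 2.11, 1.55 and 2.12 CPM in R26 hypoxia and at 3.25, 2.90 and 2.90 CPM in R26 normoxia. Its 3 groups did not overlap, and R26 hypoxia was the lowest. Cenpm rose by 2.80 ± 0.14 over R26 hypoxia, 6.97-fold, and in R26 cells it fell by 0.64 ± 0.14 in hypoxia (adjusted p = 0.00886, edgeR). Its 78 reads in 1 library were the lowest count of any of the 50 genes. Cenpt (ENSMUSG00000036672, chromosome 8, 105844673 to 105853278, minus strand), which links centromeric DNA to the NDC80 complex, stood at 16.9, 16 and 17.2 CPM in HIF1a-ko hypoxia, at 15.6, 15.2 and 15.9 CPM in R26 hypoxia and at 17.1, 17.5 and 16.8 CPM in R26 normoxia. The HIF1a-ko libraries lay just above R26 hypoxia and overlapped R26 normoxia. The difference from R26 hypoxia was 0.10 ± 0.06 (adjusted p = 0.179, edgeR), and with library size alone as the scaling it was called (adjusted p = 0.032). Cenph rose by 2.34, Cenpk by 2.08, Cenpi by 2.00 and Cenpn by 2.00 on the log2 scale, all subunits of the same network. Cenpa, the histone variant that marks the centromere, rose 3.35-fold. The log2 ratio of Cenpt to Cenpk was 1.98 lower in HIF1a-ko hypoxia than in R26 hypoxia (two-sided exact permutation p = 0.1, the smallest possible).

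Of 11 genes of the outer kinetochore, the layer that meets the microtubules and recruits the checkpoint, 10 rose and Zwint, the 1 gene of the 50 that fell, was lower. Knl1, the scaffold that recruits checkpoint proteins, stood at 60.6, 54.5 and 60.5 CPM in HIF1a-ko hypoxia, at 9.66, 9.15 and 15.0 CPM in R26 hypoxia and at 9.51, 7.22 and 10.6 CPM in R26 normoxia. It rose by 2.37 ± 0.20 on the log2 scale. R26 hypoxia 3 lay above the other 5 R26 libraries, and all were far below HIF1a-ko. Zwint (ENSMUSG00000019923, chromosome 10, 72654845 to 72674964, plus strand), which binds KNL1, stood at 89.7, 104.1 and 106.5 CPM in HIF1a-ko hypoxia, at 128.5, 114.6 and 117.0 CPM in R26 hypoxia and at 126.4, 127.5 and 116.6 CPM in R26 normoxia. All HIF1a-ko libraries lay below all R26 libraries, and the R26 groups overlapped. Zwint fell by 0.26 ± 0.07 against R26 hypoxia (adjusted p = 0.0168, edgeR) and by 0.30 ± 0.07 against R26 normoxia (adjusted p = 0.00929). Without R26 hypoxia 1 the adjusted p for Zwint against R26 hypoxia was 0.0622 and without HIF1a-ko hypoxia 1 it was 0.057. The log2 ratio of Zwint to Knl1 was 2.68 lower in HIF1a-ko hypoxia than in R26 hypoxia (two-sided exact permutation p = 0.1, the smallest possible).

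All 4 genes of the NDC80 complex, the main microtubule coupler, rose. Ndc80 rose by 2.22 ± 0.11 and Nuf2 by 2.35 ± 0.12, and their partners Spc24 and Spc25 by 2.35 ± 0.15 and 2.35 ± 0.09. The ratio of Spc25 to Spc24 differed by -0.01 on the log2 scale between HIF1a-ko hypoxia and R26 hypoxia (two-sided exact permutation p = 1), and that of Nuf2 to Ndc80 was 0.13 higher (p = 0.1 by the same exact test, the smallest possible). The MIS12 complex, which bridges inner and outer kinetochore, did not move as 1 unit. Nsl1 (ENSMUSG00000062510, chromosome 1, 191063012 to 191086474, plus strand) was at 14.4, 14.7 and 14.2 CPM in HIF1a-ko hypoxia, 2.89, 2.84 and 3.23 CPM in R26 hypoxia and 2.80, 3.41 and 3.67 CPM in R26 normoxia, a rise of 2.27 ± 0.12 over R26 hypoxia. Mis12 (ENSMUSG00000040599, chromosome 11, 71019611 to 71027371, plus strand) was at 45.8, 47.0 and 51.3 CPM in HIF1a-ko hypoxia, 34.0, 30.1 and 30.6 CPM in R26 hypoxia and 31.0, 29.8 and 27.3 CPM in R26 normoxia, a rise of 0.61 ± 0.07. For both genes HIF1a-ko libraries were above all R26 libraries, and Dsn1, the third subunit on the list, rose by 0.74 ± 0.05. The log2 ratio of Nsl1 to Mis12 was 1.67 higher in HIF1a-ko hypoxia than in R26 hypoxia and that of Nsl1 to Dsn1 was 1.53 higher, each with a two-sided exact permutation p of 0.1, the smallest possible. These pairs were chosen after their values were seen, and Mis12 exons overlap the opposite-strand gene Derl2 over 231 bp. The kinetochore motor Cenpe rose 3.49-fold and Cenpf, a large microtubule-binding protein, 3.98-fold.

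**Figure D4:**
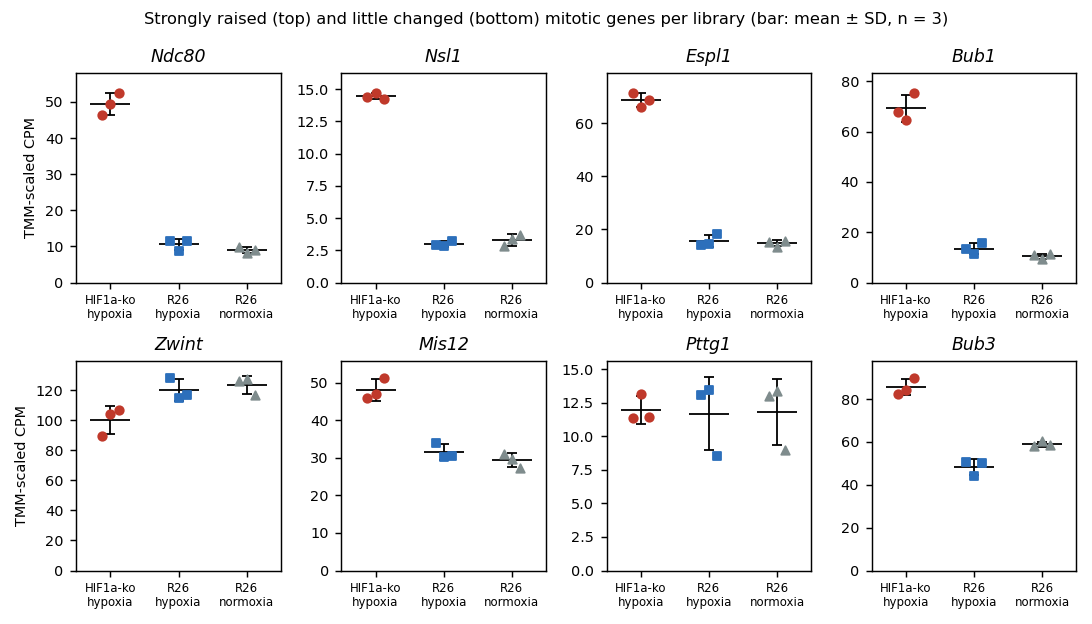
Level in CPM per library of Ndc80, Nsl1, Espl1 and Bub1 (top row) and of Zwint, Mis12, Pttg1 and Bub3 (bottom row). Points are libraries, the long line is the group mean and the bar its SD (n = 3), and all axes start at 0. Zwint is lower in HIF1a-ko hypoxia than in both R26 groups, and the 3 groups of Pttg1 overlap.

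All 8 mitotic kinesins rose. Kif18b, which shortens astral microtubules, stood at 38.9, 39.2 and 39.2 CPM in HIF1a-ko hypoxia, at 9.20, 7.22 and 8.74 CPM in R26 hypoxia and at 8.38, 7.57 and 7.75 CPM in R26 normoxia. Kif22, which pushes chromosome arms towards the equator, stood at 44.2, 42.3 and 45.2 CPM in HIF1a-ko hypoxia, at 16.1, 11.9 and 15.1 CPM in R26 hypoxia and at 11.9, 11.8 and 11.8 CPM in R26 normoxia. Both stood clear of the R26 libraries in HIF1a-ko hypoxia, with rises of 2.22 ± 0.09 for Kif18b and 1.61 ± 0.10 for Kif22. Kif11, which pushes spindle poles apart, rose 4.29-fold, Kif20b, a motor of late cytokinesis, 4.47-fold, the depolymerase Kif2c 3.67-fold, Kif15, which backs up Kif11, 3.59-fold, and Kif18a, which limits chromosome oscillation, 3.13-fold. Kif4, the chromosome-arm motor, rose 3.64-fold, and its exons overlap those of Pdzd11 on the other strand over 832 bp.

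The 5 cytokinesis genes rose. Ect2, the exchange factor that activates RhoA at the cell equator, stood at 86.3, 82.3 and 92.9 CPM in HIF1a-ko hypoxia, at 18.5, 18.7 and 23.7 CPM in R26 hypoxia and at 13.6, 14 and 14.9 CPM in R26 normoxia. Anln, the anillin that scaffolds the contractile ring, stood at 273.6, 261.0 and 274.8 CPM in HIF1a-ko hypoxia, at 86.0, 79.1 and 102.7 CPM in R26 hypoxia and at 72.3, 63.4 and 82.7 CPM in R26 normoxia. The 3 groups of Ect2 did not overlap, and for Anln the R26 groups did. Ect2 rose by 2.10 ± 0.10 and Anln by 1.59 ± 0.11 over R26 hypoxia. Kif20a, which carries the passenger complex to the midzone, rose by 2.00 on the log2 scale, Prc1, which bundles the central spindle, by 1.90, and Kif23, a motor of the centralspindlin complex, by 1.84. Kif20a exons overlap the opposite-strand gene Cdc23 over 1271 bp and Prc1 exons overlap Rccd1 over 911 bp, and the strand setting of the counting is not given in the sources used here.

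Of 4 genes of anaphase onset, 3 rose and Pttg1 was not called. Sgo1, which protects centromeric cohesion, stood at 48.7, 48.3 and 47.3 CPM in HIF1a-ko hypoxia, at 9.31, 8.81 and 11.0 CPM in R26 hypoxia and at 9.33, 8.11 and 9.96 CPM in R26 normoxia. Pttg1 (ENSMUSG00000020415, chromosome 11, 43420250 to 43426251, minus strand), the securin that inhibits separase, stood at 11.3, 13.1 and 11.4 CPM in HIF1a-ko hypoxia, at 13.1, 13.4 and 8.56 CPM in R26 hypoxia and at 13, 13.4 and 8.94 CPM in R26 normoxia. Sgo1 in HIF1a-ko hypoxia was clear of the R26 libraries, and Pttg1 overlapped throughout, with its lowest values in the deeper R26 libraries. Sgo1 rose by 2.31 ± 0.10, and the difference for Pttg1 was 0.04 ± 0.20 (adjusted p = 0.9, edgeR). Espl1, the separase that cuts cohesin, rose 4.37-fold, so the log2 ratio of Pttg1 to Espl1 was 2.08 lower in HIF1a-ko hypoxia than in R26 hypoxia (two-sided exact permutation p = 0.1, the smallest possible). Cdc20, which activates the anaphase-promoting complex, rose 3.39-fold, and 10.6% of its transcript sequence is shared with other genes.

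Scaled to annotated exon length, the order of the genes changed between the groups. In HIF1a-ko hypoxia the highest level was that of Top2a (48.4 CPM per kb), followed by Cdc20 (42.1 CPM per kb), and Kif18a was lowest (2.07 CPM per kb). In R26 hypoxia Zwint was highest (27.1 CPM per kb), followed by Cdc20 (12.4 CPM per kb), with Nsl1 lowest (0.564 CPM per kb). R26 normoxia had Zwint highest as well (27.8 CPM per kb), with Kif18a lowest (0.568 CPM per kb). Zwint stood at 22.6 CPM per kb in HIF1a-ko hypoxia, below 10 of the other genes.

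In R26 cells, the changes of the mitotic genes with hypoxia ran from -0.64 to 0.61 on the log2 scale, and how many were called depended on the fit. Between R26 hypoxia and R26 normoxia, 7 of the 50 rose and 2 fell by the same edgeR test, against 12.8% of all genes called higher and 12.4% lower. The count of higher genes is near the background share, and the count of lower genes is below it. The median log2 fold change was 0.14, against -0.01 over all genes, and none of the 50 was called at least 2-fold higher (1.99% of all genes were). In 11 genes R26 hypoxia lay above R26 normoxia without overlap (19.3% of all genes) and in 4 below (19.1% of all genes). Same-numbered libraries of these 2 groups deviated in the same direction, but R26 hypoxia 1 matched R26 normoxia 2 best. The libraries numbered 3 are also the deeper ones, so number and depth cannot be told apart there. With the replicate number as a block 19 of the 50 were called higher and 2 lower, against 22.1% and 19.6% of the 17387 genes tested in that fit. With the depth class of the library as a term, 13 were called higher and 2 lower, and the count over all genes rose as well. Counts over all genes for the alternative fits are given at the end.

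The 7 risers were Cenpf, Ect2, Mki67, Prc1, Cenpa, Kif2c and Kif23. Cenpf stood at 29.2, 27.3 and 36.9 CPM in R26 hypoxia and at 21.0, 17.8 and 22.2 CPM in R26 normoxia, separate groups with a rise of 0.61 ± 0.12 (adjusted p = 0.00435, edgeR). Ect2 rose by 0.52 ± 0.10 (adjusted p = 0.00454) and Mki67 by 0.43 ± 0.11 (adjusted p = 0.0169). The rises of Prc1, Cenpa, Kif2c and Kif23 were 0.39, 0.38, 0.36 and 0.29 on the log2 scale. The 2 genes that fell were Cenpm and Bub3, described above. Cenpf, Ect2, Cenpm and Bub3 were called in the main test and in all 17 alternatives. The number of risers depended on single libraries: it was 2 without R26 normoxia 2, 3 without R26 normoxia 1, 4 without R26 hypoxia 1 or R26 hypoxia 3, and 16 without R26 hypoxia 2. The number of all genes called moved with the library left out too. It is given at the end only as a range, so these counts cannot be read against the share of their own fit.

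R26 hypoxia 2 had the lowest of the 3 R26 hypoxia levels in 43 of the 50 genes, and R26 hypoxia 3, the deeper library, had the highest in 37. R26 normoxia 2 was lowest in 34 genes and the deeper R26 normoxia 3 highest in 28. In HIF1a-ko hypoxia the deeper library was highest in 12 genes and lowest in 15. The median coefficient of variation of the 50 genes was 3.89% in HIF1a-ko hypoxia, 13.6% in R26 hypoxia and 8.70% in R26 normoxia. The part of sequencing depth in the order of the R26 libraries was not tested.

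Against R26 normoxia, 47 of the 50 genes rose in HIF1a-ko hypoxia, Zwint fell and Cenpt and Pttg1 were not called, while 19.5% of all genes were called higher and 21.9% lower, 41.4% in either direction. The median was 2.18, 44 genes were called at least 2-fold higher (5.41% of all genes), and 36 were at least 4-fold higher (1.80% of all genes). This comparison shares its libraries with the other 2. Bub1 rose by 2.71, Knl1 by 2.68, Ect2 by 2.62 and Cenpf by 2.60, the 4 highest values. Bub3 rose by 0.54 ± 0.06, and for Cenpt the difference was -0.03 ± 0.06 (adjusted p = 0.682, edgeR).

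Another 125 genes of mitosis outside the 50 were listed by complex, also with earlier results of these data known, and all were tested. Between HIF1a-ko hypoxia and R26 hypoxia, 94 were called higher and 10 lower, with a median of 0.86. Over all genes tested, 22% were called higher and 23.8% lower. Condensin genes, which compact mitotic chromosomes, were called higher in 8 of 8, with Smc2 at 2.27 and Ncaph2 at 0.21 on the log2 scale. Other centromere and kinetochore genes were called higher in 21 of 24 and lower in none, among them the RZZ subunits Kntc1 (2.42) and Zwilch (2.31), whereas Zw10, their partner, differed by 0.10 (adjusted p = 0.368, edgeR). Genes of mitotic entry and its transcription were called higher in 18 of 21 and lower in 1, with the cyclin Ccna2 at 2.16, the regulators Mybl2 at 2.06 and Foxm1 at 1.89, and Rbl2, which encodes the pocket protein p130, at -0.38.

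The remaining lists had lower medians, and their counts stand against the same 22% of all genes higher and 23.8% lower. Of 13 cohesin genes 7 were higher and 2 lower (median 0.29), with the S-phase factors Esco2 and Cdca5 at 2.92 and 1.80 and the core subunits Smc1a and Smc3 at 0.49 and 0.37. For the anaphase-promoting complex and its E2 enzymes, 8 of 18 were higher and 5 lower (median 0.26), the lower count being near the share of all genes. Its mitotic E2 enzyme Ube2c rose by 1.94 and its inhibitor Fbxo5 by 1.96, while the subunit Anapc2 fell by 0.66. Other cytokinesis genes were higher in 8 of 12 and lower in none (median 0.18), with Cit, Kif14, Racgap1 and Cep55 between 1.89 and 2.04 and Rhoa at 0.06 (adjusted p = 0.498, edgeR). Among centrosome and spindle genes 24 of 29 were higher and 2 lower (median 0.89), with Spag5 at 2.23 and Numa1 at -0.40. Between R26 hypoxia and R26 normoxia, 25 of the 125 rose and 6 fell, with Cep55 highest at 0.72 and Haus7 lowest at -0.45, against 12.8% of all genes higher and 12.4% lower. With the replicate block these counts were 49 and 10, against 22.1% and 19.6% of all genes.

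**Figure D5:**
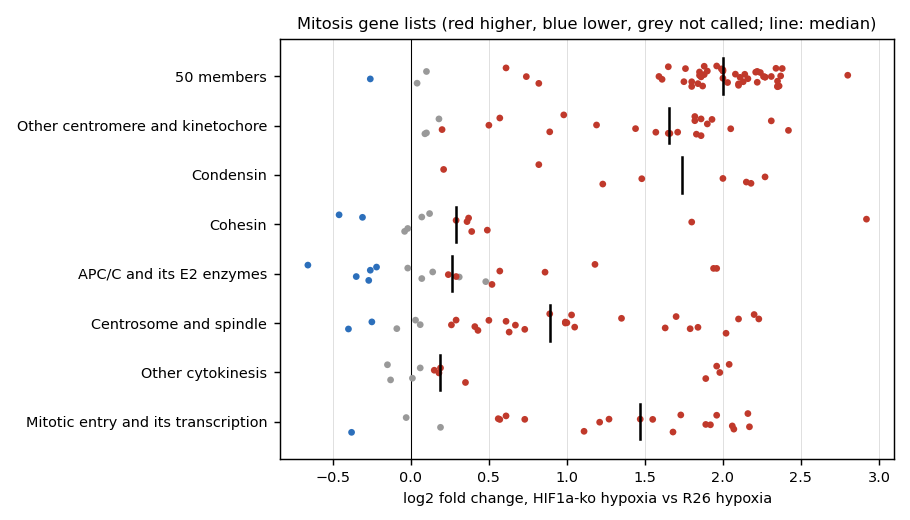
Log2 fold change of HIF1a-ko hypoxia over R26 hypoxia for the 50 genes (top row) and the 125 other mitosis genes by list. Each point is 1 gene, red if called higher, blue if lower and grey if not called, and the vertical line is the median. The median is 2.00 for the 50 genes, 0.29 for cohesin and 0.26 for the anaphase-promoting complex (APC/C).

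Markers of cell types were set beside these differences. Of 28 tested markers of stellate, epithelial, acinar, islet, leukocyte and endothelial cells, 2 were higher and 10 lower in HIF1a-ko hypoxia than in R26 hypoxia, against 22% of all genes higher and 23.8% lower. Among 10 fibroblast markers 1 was higher (Acta2, 0.54) and 5 lower, of which Pdgfra changed most (-1.70). Summed epithelial markers ran from 14.1 to 59.1 CPM in HIF1a-ko hypoxia, 46.5 to 106.6 CPM in R26 hypoxia and 15.7 to 69.9 CPM in R26 normoxia, and Krt19 (-1.62) and Muc1 (-1.46) of that list were called lower in HIF1a-ko hypoxia than in R26 hypoxia. The acinar gene Cela1 was called lower as well (-1.22). Summed leukocyte markers ran from 15.3 to 71.5 CPM in HIF1a-ko hypoxia, 7.13 to 65.5 CPM in R26 hypoxia and 11.0 to 49.0 CPM in R26 normoxia, and summed endothelial markers were at most 13.1 CPM in any library. Their part in the difference of the mitotic genes was not tested.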

How the data were processed

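The authors deposited raw integer counts of reads for each Ensembl identifier. The submitters' processing notes name the build GRCm38 and the tools bcl2fastq 2.17, STAR, Trimmomatic, DESeq2 and featureCounts, without their roles, and the annotation release and strand setting used in counting were not given in these sources. Columns were matched to samples by name. From the counts, genes were tested with edgeR 4.0.16 (R 4.3.3): TMM scaling, filterByExpr, 9 libraries in 1 quasi-likelihood fit with group as the only term, and Benjamini-Hochberg adjustment over 18211 genes. The script was tested on simulated data with 2-fold changes put into HIF1a-ko hypoxia. Against R26 hypoxia it recovered 110 of 193 changed genes, with 9 false calls. Of the 96 changed genes at 10 CPM or more it called 93, so changes of genes at low levels were often missed. No 2 libraries of a group agreed within sampling noise. Shared sequence was counted in 50-base words of GENCODE M21 transcripts.

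The replicate numbers come from the labels, which name no shared culture or day. Deviations of same-numbered libraries correlated at 0.48, 0.53 and 0.85 between R26 hypoxia and R26 normoxia, so the blocked counts stand beside that comparison. R26 hypoxia 1 correlated best with R26 normoxia 2, and the 0.85 belongs to number 3, the deeper library in both groups. In HIF1a-ko hypoxia the deeper library is number 1. For HIF1a-ko hypoxia against R26 hypoxia the values were -0.66, 0.57 and -0.65, so the numbers were not taken as pairs.

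All 50 genes are accounted for. Values of every library are given for Mki67, Top2a, the most and the least changed gene of each role group, genes called against the main direction and genes not called. Nsl1, Mis12 and, for R26 cells, Cenpf were added after their values were seen. The ratios of gene pairs were not among the planned tests. The members and lists were chosen with earlier results of these data known.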

Additional observations from a re-analysis of the deposited data

How the results depend on the processing

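Each test was repeated with DESeq2 size factors in edgeR, library size only, no filter, the DESeq2 test (1.42.0), depth class as a term, the shallower libraries only, 2 groups with and without a replicate block, and each library left out in turn. Between HIF1a-ko hypoxia and R26 hypoxia, 843 of the single-gene results kept their direction and side of the threshold, 1 was gained (Cenpt, library size only), 3 were lost (all Zwint) and 3 changed sign. The fall of Zwint was lost with the replicate block (-0.27, adjusted p = 0.0915), leaving 0 genes lower, and with libraries left out the count of lower genes was 0 to 1. The block changed no other call in that comparison, and against R26 normoxia 846 results kept and 4 changed sign.

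Between R26 hypoxia and R26 normoxia the count of the 50 genes called was 15 (13 higher) with the depth term, 21 (19 higher) with the block and 4 to 18 (2 to 16 higher) with libraries left out, and the DESeq2 test called 11 higher. The share over all genes in the DESeq2 test is not given here, so its count cannot be read against a background. Of the other mitosis genes, 48 (38 higher and 10 lower) were called with the depth term, 59 (49 and 10) with the block and 17 to 33 with libraries left out (14 to 30 higher, 3 to 7 lower), and 3 were lower without the filter and with 2 groups and no block. Over all genes, 4591 (2328 higher, 2263 lower) were called in the main test. With the depth term 6959 (3554 lower) were called, with the block 7259 (3843 higher, 3416 lower) and with libraries left out 3287 to 4373 (1667 to 2359 higher, 1555 to 2151 lower). The causes of these shifts were not tested.

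Values that changed sign belonged to genes not called. For hypoxia in R26 cells the ranges over libraries left out were -0.14 to 0.02 for Mad2l1, -0.07 to 0.17 for Aurkb, -0.05 to 0.07 for Birc5, -0.12 to 0.13 for Cenpn, -0.23 to 0.09 for Spc24, -0.03 to 0.17 for Kif11, -0.03 to 0.27 for Kif20b, -0.19 to 0.00 for Kif4, -0.03 to 0.18 for Kif20a, -0.03 to 0.16 for Espl1, -0.02 to 0.17 for Sgo1 and -0.16 to 0.18 for Pttg1. With library size only Cenpn was at -0.01. Pttg1 was at 0.01 without the filter and with 2 groups, 0.02 in the shallower libraries and 0.00 with the block. Against R26 hypoxia, Pttg1 in HIF1a-ko hypoxia was at -0.11 in the shallower libraries and at -0.15 to 0.15 with a library left out. Against R26 normoxia, Pttg1 was at -0.08 in the shallower libraries and -0.12 to 0.13 with a library left out, and Cenpt at 0.01 with library size only. The lowest count of any of the 50 genes in a library was 78.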
